A study of Mus musculus with 2 samples.

Results

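The vomeronasal type 2 receptor (V2R) genes were taken as all protein-coding genes of GENCODE release M21 on the mouse build GRCm38 whose symbols begin with Vmn2r. This rule gave 122 of 21755 protein-coding genes. Of the 122, 2 carry "ps" in the symbol (Vmn2r-ps130 and Vmn2r-ps159), and 113 further Vmn2r loci are annotated as pseudogenes and were not members. The study measured chromosome contacts by in situ Hi-C, in which fixed DNA is cut and religated inside the nucleus so that neighbouring sequences are joined and read together. Its single group was mature olfactory sensory neurons (mOSNs) with a conditional Ldb1 knockout by OMP-Cre, sorted by FACS from olfactory epithelium. The animals were adults of mixed sex, and their strain is not specified. Ldb1 is a cofactor that joins transcription factors bound at different sites. There were 2 biological replicates of 1000000 cells, fixed in 1% formaldehyde and cut with DpnII. Omp is a gene of mature olfactory neurons, so the Cre acts late in the lineage. No control neurons were analysed here, and nothing below compares knockout with normal cells.

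V2Rs are class C G protein-coupled receptors with a large extracellular domain, related to the metabotropic glutamate and calcium-sensing receptors. In the mouse they serve the basal sensory neurons of the vomeronasal organ, where they couple to the G protein subunit encoded by Gnao1 and detect peptides and proteins such as exocrine gland-secreting peptides and major urinary proteins. Most neurons of that layer combine a selected V2R with a broadly expressed one of the Vmn2r1 to Vmn2r7 group. The neurons studied here come from another organ, the olfactory epithelium, and a boundary list measures no expression, so neither the activity of the genes nor the purity of the sort could be checked.

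A boundary is a 5 kb bin at a local minimum of contact across it. The deposited list held 7610 such bins, each with a class and a strength, which is the authors' own score. Every boundary called strong scored at least 0.500 and every weak one less. The median strength was 0.538 and 52.9% of the list was strong. The list was called on the pooled contacts of both replicates, so values carry no replicate error and the depth behind a boundary is unknown. Binomial and Poisson intervals (exact, 95%) cover counting error only and treat genes as independent, although neighbouring genes share boundaries.

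The 122 genes lay on 9 chromosomes, with 51 on chromosome 7 and 32 on chromosome 17. Chromosomes 5, 6, 10 and 3 held 11, 9, 8 and 7, chromosome 14 held 2, and chromosomes 4 and X held 1 each. Joining genes at most 200 kb apart gave 17 clusters of at least 3 members, which took in 104 genes and covered 8.56 Mb. The median cluster was 451 kb long. With 82.3 kb of cluster per member, V2R genes were spread more widely than the vomeronasal type 1 receptor genes (Vmn1r, 45.1 kb) or the olfactory receptor (OR) genes (26.0 kb) joined by the same rule. The median V2R gene spanned 27.02 kb, and 40 of 122 read on the plus strand.

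V2R genes share boundaries and intervals, so the count of genes at a boundary depends on how they are counted. Of 122 transcription start sites (TSSs), 10 lay within 10 kb of a boundary bin (8.20%, interval 4.00 to 14.6%), against 14.3% of all protein-coding genes. The share was 4.31% for Vmn1r genes (9 of 209) and 6.43% for OR genes (73 of 1135). The upper limit of the V2R interval was just above the value for all genes. With 1 member kept per interval, the first by position, and all members whose TSS lay inside a bin, the share was 17.1% (7 of 41). The first by position is the leftmost member, so this choice favours genes beside a left boundary. All protein-coding genes were not thinned in this way, so this share cannot be set against their 14.3%. With strong boundaries alone the count was 2 members, Vmn2r80 and Vmn2r7, against 9.3% of all protein-coding genes. A boundary bin overlapped the body of 7 V2R genes (Vmn2r7, Vmn2r15, Vmn2r27, Vmn2r56, Vmn2r69, Vmn2r75 and Vmn2r101), in an exon for 6 of them and in an intron for Vmn2r7, and 16.2% of all protein-coding genes were overlapped.

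The median V2R start site was farther from a boundary than that of all protein-coding genes. The median distance was 143 kb (quartiles 68.7 and 302 kb, highest 1539 kb), against 139 kb for Vmn1r genes, 96.4 kb for OR genes and 56.6 kb over all protein-coding genes. More than 200 kb from any boundary were 44 V2R genes (36.1%). The share was 35.4% of Vmn1r genes, 21.7% of OR genes and 8.37% of all protein-coding genes. The 44 V2R genes include all 24 members of a single stretch of chromosome 7, described below. Without those 24 the median V2R distance was 105 kb. In each of these receptor families the nearest boundary was also weaker than over all genes. It was strong for 38 V2R genes (31.1%), 38.8% of Vmn1r genes, 34.7% of OR genes and 63.3% of all genes. Its median strength was 0.362, 0.435, 0.372 and 0.659, in that order. For 54 members the nearest boundary lay upstream of the TSS and for 66 downstream, with 2 TSSs inside a bin.

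**Figure D1:**
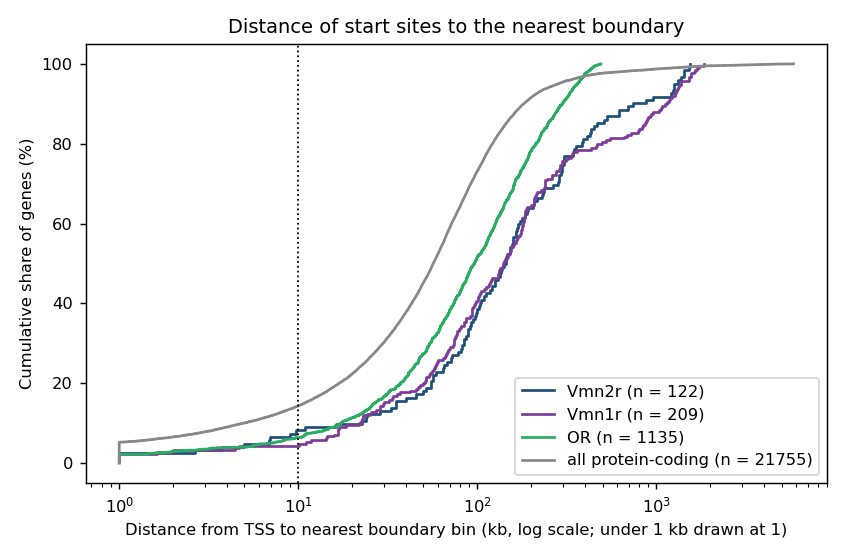
Cumulative share of genes (vertical axis, %) by distance from the TSS to the nearest boundary bin (kb, log scale; distances under 1 kb are drawn at 1 kb) for V2R, Vmn1r, OR and all protein-coding genes, with a dotted line at 10 kb. At the middle of the curves the order is all genes, OR, Vmn1r and V2R, with medians of 56.6, 96.4, 139 and 143 kb. At the dotted line the V2R share (8.20%) is above that of OR genes (6.43%), and the curve of all genes has the longest tail.

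The 10 members at a boundary stood at 10 different bins on 6 chromosomes. Vmn2r80 on chromosome 10 began 3.77 kb from a bin of strength 2.01, the strongest of these. Vmn2r7 on chromosome 3 began 9.77 kb from one of strength 1.02. The boundaries of the other 8 were weak, from 0.202 (Vmn2r92, 6.89 kb) to 0.424 (Vmn2r75, TSS inside the bin). In between were Vmn2r15 (2.64 kb, strength 0.233), Vmn2r67 (9.003 kb, 0.241), Vmn2r27 (inside the bin, 0.264), Vmn2r99 (6.95 kb, 0.276), Vmn2r3 (0.292 kb, 0.301) and Vmn2r55 (4.998 kb, 0.362). Just outside the window was Vmn2r69, 10.9 kb from a boundary of strength 0.218. The place of Vmn2r7 depends on its gene model. GENCODE draws the gene over 160 kb, whereas RefSeq starts it 125163 bases further downstream, 110 kb from the boundary. RefSeq starts Vmn2r3 2292 bases further downstream, which leaves it within 10 kb of a boundary but not at 0.292 kb. With RefSeq starts 9 of 115 matched members were at a boundary (7.83%), at a median distance of 136 kb.

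The 250 bases before the GENCODE TSS are shown for 4 of these genes, read 5′ to 3′ on the gene's strand from GRCm38: Vmn2r80 for the strongest boundary (plus strand, chr10:79148519-79148768), Vmn2r3 for the closest bin that does not hold the TSS (minus strand, chr3:64289710-64289959), and Vmn2r67 (minus strand, chr7:85155999-85156248) with Vmn2r75 (minus strand, chr7:86171779-86172028) as the most similar pair, 62.4% identical. Capitals mark the homeodomain motif TAATTA.
Vmn2r80: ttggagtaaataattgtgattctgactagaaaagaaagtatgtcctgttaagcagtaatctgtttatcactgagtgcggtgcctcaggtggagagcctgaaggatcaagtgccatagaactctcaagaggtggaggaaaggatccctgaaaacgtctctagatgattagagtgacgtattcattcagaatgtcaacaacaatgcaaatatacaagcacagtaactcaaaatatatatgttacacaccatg
Vmn2r3: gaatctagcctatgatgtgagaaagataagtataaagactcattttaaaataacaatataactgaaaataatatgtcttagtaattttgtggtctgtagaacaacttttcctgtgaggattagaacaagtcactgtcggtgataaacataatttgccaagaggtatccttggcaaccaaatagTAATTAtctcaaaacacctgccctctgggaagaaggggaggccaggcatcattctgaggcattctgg
Vmn2r67: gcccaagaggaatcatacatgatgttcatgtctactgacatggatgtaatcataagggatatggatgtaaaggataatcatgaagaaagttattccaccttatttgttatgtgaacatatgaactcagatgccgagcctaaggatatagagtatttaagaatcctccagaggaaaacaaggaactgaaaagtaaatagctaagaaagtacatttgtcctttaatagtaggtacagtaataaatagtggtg
Vmn2r75: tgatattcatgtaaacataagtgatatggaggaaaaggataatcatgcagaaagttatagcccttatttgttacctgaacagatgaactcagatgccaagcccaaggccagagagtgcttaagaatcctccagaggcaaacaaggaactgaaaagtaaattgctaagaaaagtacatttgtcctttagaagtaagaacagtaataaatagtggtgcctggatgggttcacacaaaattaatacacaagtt
Every other pair among the 10 upstream sequences was 54.4% identical or less. TAATTA, which reads the same on both strands, occurred upstream of 3 of the 10: Vmn2r92 at -74, Vmn2r3 at -67 and Vmn2r15 at -37 from the TSS. For Vmn2r3 the bases shown and this position hold for the GENCODE start only, since its RefSeq start lies 2292 bases downstream. In the RefSeq promoters (GRCm38.p6; 115 of 122 members matched, 102 of them within 1 kb of the GENCODE TSS) it was present in 20 of 115 V2R promoters (17.4%, interval 10.96 to 25.6%) and in 5.31% of all 27025. The V2R promoters had a median GC content of 38.0%, against 52.7% over all promoters. The palindromic Ebf motif was found in 0 of 115 V2R promoters (which at 3 counts allows up to 2.61%) and in 0.914% of all promoters. TAATTA holds only A and T, and neither motif was set against promoters of matched GC content. Whether the shares differ beyond composition was not tested. These are letter matches, and no binding was measured.

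On chromosome 7, the longest boundary-free stretch of the family ran from 6950001 to 10460000, 3510 kb, between boundaries of strength 0.717 and 0.435. It was the fifth longest of 7590 intervals between neighbouring boundaries and held 24 members in 4 clusters, Vmn2r29 to Vmn2r36, Vmn2r41 to Vmn2r45, Vmn2r40 to Vmn2r37 and Vmn2r46 to Vmn2r52, all on the minus strand. The 4 clusters were 671, 352, 317 and 429 kb long and none held a boundary. Their median distances to a boundary were 573, 1311, 1396 and 468 kb. The 5 members farthest from any boundary were all here: Vmn2r45 (1539 kb), Vmn2r40 (1529 kb), Vmn2r44 (1433 kb), Vmn2r39 (1429 kb) and Vmn2r38 (1362 kb). The nearest other gene to the left of the first cluster was Zfp772, 21.3 kb away, and to the right of the last one Vmn1r66, 96.4 kb away. The stretch held 10 other protein-coding genes, these included, among them the chloride transporter gene Clcn4.

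The sequence of the stretch was highly repeated. Of 50-base words sampled every 100 bases, 75.3% occurred more than once in the genome, against 11.4% over all chromosomes, and assembly gaps took 1.42%. Its members also resembled each other across the whole stretch. Over 211 pairs from different clusters of the stretch the median coding-sequence identity was 92.3%, and Vmn2r40 and Vmn2r41 in different clusters were 99.8% identical. The 50 bases below, shown because they recur most widely among these members, come from the coding strand of Vmn2r29 (minus strand, chr7:7242286-7242335, GRCm38) and were present in 20 of the 24 coding sequences. The word occurred 42 times in the genome, all 42 inside the stretch. It was 1 of 37 words that were shared equally widely.
Vmn2r29 coding word: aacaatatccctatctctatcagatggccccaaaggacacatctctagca
How far reads from such copies could be placed in the contact map was not tested. The sources used here do not give the caller's mask.

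The only comparable interval held Vmn2r121, the single member on chromosome X. It ran from 122885001 to 126360000 (3475 kb, sixth longest), with 82.5% repeated words and 14.4% assembly gaps, and Vmn2r121 lay 1251 kb from the nearest boundary. Together, 25 members (20.8% of those in intervals) lay in intervals above 1000 kb, against 4.81% of all genes, 34.5% of Vmn1r genes and 0.718% of OR genes. Among all 7590 intervals 167 were longer than 1000 kb, and 2 of them held V2R genes. The remaining V2R intervals were at most 905 kb long. The median over the 36 closed intervals with V2R genes was 380 kb, against 260 kb over all intervals, whether or not they held a gene. Counted per gene, the median interval was 495 kb for V2R, 660 kb for Vmn1r, 455 kb for OR and 275 kb for all protein-coding genes. With strong boundaries alone, the same 24 members lay in one interval of 5065 kb, from 6950001 to 12015000 on chromosome 7.

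**Figure D2:**
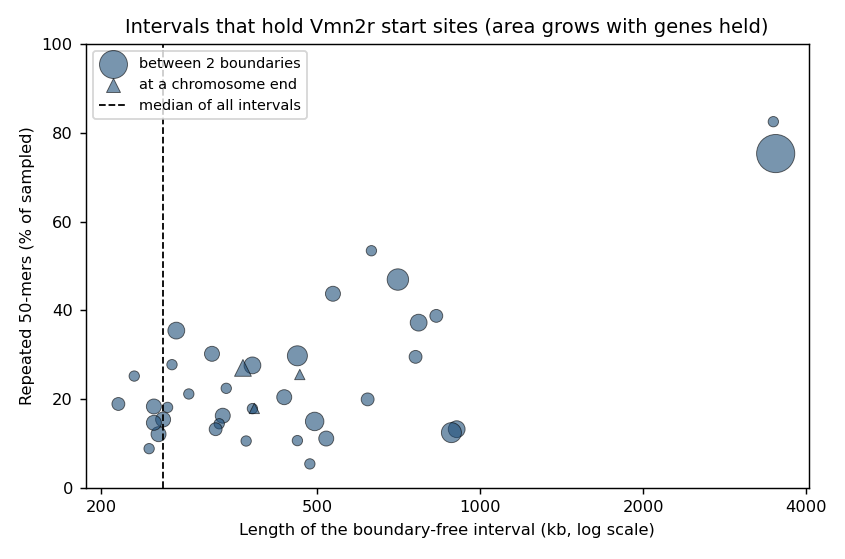
Each point is a boundary-free interval that holds V2R start sites, placed by its length (kb, log scale) and the share of its sampled 50-base words that recur in the genome (%), with an area that grows with the number of V2R genes and a dashed line at the median of all intervals (260 kb). The interval of 24 genes (3510 kb, 75.3%) and that of Vmn2r121 (3475 kb, 82.5%) stand apart from the rest, which reach 905 kb.

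The other 4 clusters of chromosome 7 were broken more often. Vmn2r65 to Vmn2r76, the largest cluster with 12 members over 1311 kb between Olfr290 and Olfr310, held 4 boundaries, of strength 0.241, 0.218, 0.248 and 0.424, and its members fell into 5 intervals. Vmn2r67 began at the first of these and Vmn2r75 in the last, and the second overlapped an exon of Vmn2r69. Vmn2r53 to Vmn2r56 (172 kb, between 2900092C05Rik and Zscan18) held 1 boundary of strength 0.362, in an exon of Vmn2r56 and 4.998 kb from the TSS of Vmn2r55. Vmn2r58 to Vmn2r61 (465 kb, between Zfp788 and 4933421I07Rik) also held 1, of strength 0.298, which separated Vmn2r58 from the other 3 members. Vmn2r77 to Vmn2r79 (250 kb, between Folh1 and Nox4) held none and had a strong boundary of 0.603 at 35.1 kb from its right edge. It shared an interval of 905 kb with Vmn2r76 and 16 other genes.

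Chromosome 17 held 4 clusters with 4 inner boundaries, all of them weak. Vmn2r124 to Vmn2r96 (7 members, 567 kb) held 2, of strength 0.202 and 0.238, and Vmn2r92 began 6.89 kb from the first. Its nearest neighbour to the left was Fpr-rs4, a formyl peptide receptor-related gene, 26.7 kb away. Vmn2r99 to Vmn2r103 (5 members, 451 kb) held 1 of strength 0.490 in an exon of Vmn2r101, the strongest of those that lay inside a cluster and more than 50 kb from its edges. It had another of 0.276 at 6.95 kb from its left edge. Vmn2r104 to Vmn2r110 (7 members, 568 kb) held 1 of strength 0.246, between Vmn2r104 and Vmn2r105. This cluster was interleaved with 4 other chemoreceptor genes, Fpr-rs7, Fpr-rs6, Vmn1r224 and Vmn1r225, and its right neighbour was Fpr-rs3 at 27.4 kb. Its last 6 members shared an interval of 885 kb.

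Vmn2r114 to Vmn2r117 on chromosome 17 was a compact cluster with a boundary within 50 kb of both edges. It includes Vmn2r116 and Vmn2r115, known as receptors for the male tear peptide ESP1 and the juvenile peptide ESP22. The 4 genes spanned 194 kb without an inner boundary, with a weak boundary (0.348) 45.4 kb to the left and a strong one (1.91) 35.3 kb to the right. Vmn2r117 lay 35.3 kb, Vmn2r114 72.5 kb, Vmn2r115 104 kb and Vmn2r116 130 kb from the nearest of them. The nearest other genes, Zfp40 and Zfp213, were 92.1 and 77.1 kb away, so all 4 members shared an interval of 275 kb with no other protein-coding gene.

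On chromosome 3 the cluster Vmn2r1 to Vmn2r7, the broadly expressed group, spanned 763 kb between Gmps and Kcnab1 and held 2 boundaries. The first, of strength 0.301, lay 0.292 kb from the TSS of Vmn2r3 and parted Vmn2r1 to Vmn2r3 from Vmn2r4 to Vmn2r6. The second (1.02) lay in the intron of Vmn2r7. Outside the cluster a strong boundary (1.16) stood 51.5 kb to the left, just past the 50 kb taken as an edge. The 7 genes were spread over 3 intervals by their GENCODE starts, at distances of 0.292 to 264 kb. From the RefSeq start of Vmn2r7 the second boundary lay outside the cluster, which then held 1 boundary and 2 intervals, with Vmn2r7 among Vmn2r4 to Vmn2r6.

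On chromosome 5, Vmn2r8 to Vmn2r17 (10 members, 667 kb, between Rnf212 and Crlf2) held the strongest boundary of any V2R cluster, 2.16, 33.2 kb inside the left edge. It separated Vmn2r8, whose interval held 14 other genes, from 6 members, Vmn2r9 to Vmn2r14, in an interval of 460 kb with no other gene. A weak boundary of 0.233 in an exon of Vmn2r15 separated the last 3. On chromosome 6, Vmn2r19 to Vmn2r27 (9 members, 924 kb, between Clec4e and Cd163) held 2 weak boundaries. That of 0.257 parted 7 members in 705 kb from Vmn2r26, which lay alone, and that of 0.264 covered the TSS of Vmn2r27 at the right edge.

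Both clusters of chromosome 10 were free of inner boundaries. Vmn2r80 to Vmn2r83 (4 members, 345 kb) lay between strong boundaries of 2.01, 3.77 kb from the left edge, and 0.532, 31.4 kb from the right edge in an exon of Plpp2. The 4 genes, all on the plus strand, filled an interval of 380 kb with no other protein-coding gene. Vmn2r83 is known from sensory cells of the Grueneberg ganglion. Vmn2r84 to Vmn2r87 (4 members, 119 kb, all on the minus strand) had a weak boundary of 0.205 at 47.9 kb from the left edge, in an exon of Tespa1. To its right no boundary and no protein-coding gene followed before the end of the chromosome.

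**Figure D3:**
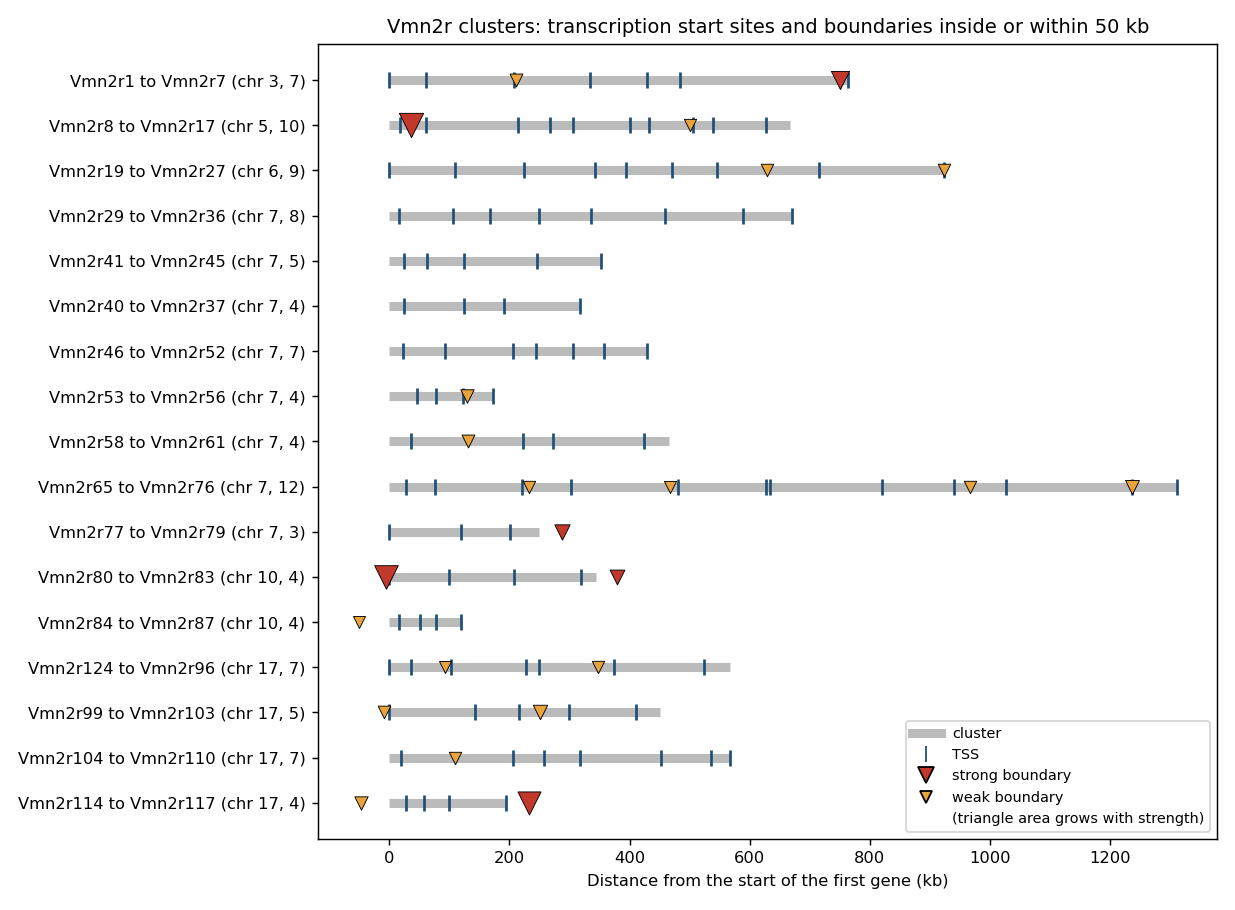
The 17 V2R clusters drawn to scale from the start of their first gene (kb), with blue ticks at TSSs and triangles at boundary bins inside the cluster or within 50 kb of its edges, coloured by class and sized by strength. The row labels give chromosome and number of members. The 4 clusters from Vmn2r29 to Vmn2r52 carry no triangle, and 6 of the 23 triangles are strong.

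The 18 members outside clusters lay 28.7 to 1251 kb from a boundary, and none was within 10 kb. Closest was Vmn2r90 (28.7 kb, strength 1.22), followed by Vmn2r118 (55.2 kb), Vmn2r28 (59.0 kb), Vmn2r57 (88.7 kb), Vmn2r111 (108 kb), Vmn2r112 (136 kb), Vmn2r120 (141 kb), Vmn2r-ps130 (174 kb) and Vmn2r97 (184 kb). Beyond 200 kb were Vmn2r-ps159 (206 kb), Vmn2r18 (236 kb), Vmn2r113 (292 kb), Vmn2r98 (297 kb), Vmn2r88 (306 kb), Vmn2r63 (306 kb), Vmn2r89 (347 kb), Vmn2r62 (384 kb) and Vmn2r121. Vmn2r88, known as a receptor for hemoglobin, and Vmn2r89 made up the chromosome 14 pair and shared an interval of 760 kb with 18 other genes. Vmn2r18 on chromosome 5 and Vmn2r-ps159 on chromosome 4 lay in the last interval of their chromosomes, which no boundary closed.

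Over all 17 clusters, 16 boundaries lay inside, or 1.87 per Mb (interval 1.07 to 3.03), against 2.97 per Mb over all chromosomes, 1.77 in Vmn1r clusters and 2.47 in OR clusters. Only 2 of the 16 (12.5%) were strong, against 52.9% of the list, 31.2% in Vmn1r clusters (5 of 16) and 30.99% in OR clusters (22 of 71). One of the 2 is the boundary of strength 1.02 in the GENCODE model of Vmn2r7, and from that gene's RefSeq start the count was 1 strong of 15 (6.67%). No boundary lay inside 8 of 17 V2R clusters, among them the 4 of the long stretch. The same held for 7 of 16 Vmn1r clusters and 13 of 42 OR clusters. Of 34 cluster edges 11 had a boundary within 50 kb (32.4%, interval 17.4 to 50.5%), against 40.6% of Vmn1r edges and 63.1% of OR edges (interval 51.9 to 73.4%). The clusters Vmn2r80 to Vmn2r83 and Vmn2r114 to Vmn2r117 had one at both edges, and 8 clusters had one at neither, among them the 4 of the long stretch. None of these differences between families has a replicate error, and none was tested. The share of all positions with a boundary within 50 kb was not computed. The edge share is therefore not known to be particular to cluster edges.

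Strength differed by position within the clusters. The 11 boundaries within 50 kb of an edge, inside or outside, had a median strength of 0.532 (0.205 to 2.16) and 6 were strong. From the RefSeq start of Vmn2r7 they were 10, with a median of 0.447 and 5 strong. The 12 inside and more than 50 kb from any edge had a median of 0.247 (0.202 to 0.490) and 0 were strong. The median of the inner ones stood at the 12.9th percentile of the whole list, and that of the edge ones at the 49.6th. The ranges overlap, since 5 edge boundaries were weak as well. Repeated words made up a median of 16% of the edge bins and 4% of the inner bins. All 23 together had a median strength of 0.298, against 0.386 for Vmn1r and 0.414 for OR clusters.

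**Figure D4:**
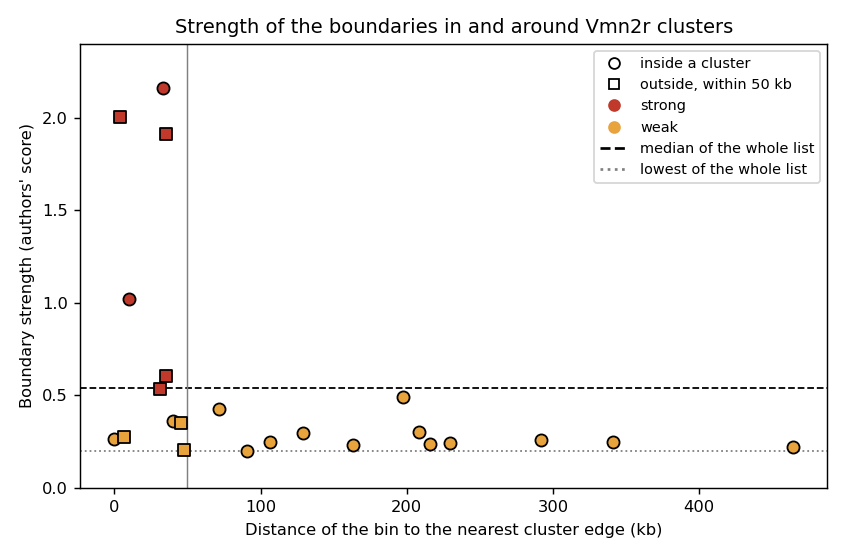
Strength (authors' score) of the 23 boundaries inside V2R clusters (circles) or outside within 50 kb (squares) against the distance of the bin to the nearest cluster edge (kb), with a vertical line at 50 kb and horizontal lines at the list's median (0.538) and lowest value (0.200). All 6 strong boundaries lie to the left of 50 kb, and the 12 to the right of it reach 0.490.

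Boundary density in the V2R clusters varied with the share of repeated sequence. Repeated words filled 35.9% of the V2R clusters, 44.6% of Vmn1r clusters and 17.7% of OR clusters. Across the genome, boundary density was 3.20 per Mb in bins with under 10% repeated words, 1.40 at 50 to 75% and 0.128 at 75 to 100%. Bins with at least 50% made up 32.5% of the V2R clusters (2.81 Mb) and held 0 boundaries, which at 3 counts allows up to 1.07 per Mb, against 0.680 per Mb in such bins overall. In the bins with under 50%, V2R clusters held 16 boundaries in 5.83 Mb, or 2.74 per Mb (interval 1.57 to 4.46), against 3.16 over all such bins. Only 2 of these 16 were strong. Without the 4 clusters of the long stretch the density was 2.35 per Mb and the share of TSSs at a boundary 10.2% (10 of 98).

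**Figure D5:**
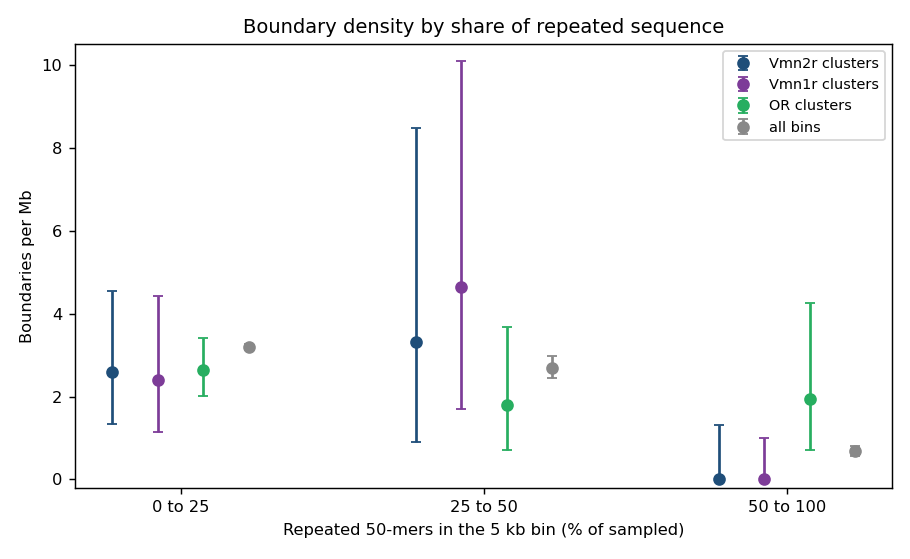
Boundaries per Mb (vertical axis) in 5 kb bins grouped by the share of sampled 50-base words that recur in the genome (0 to 25, 25 to 50 and 50 to 100%), for V2R, Vmn1r and OR clusters and all bins; bars are exact 95% Poisson intervals. V2R clusters have 2.60, 3.31 and 0 per Mb, against 3.19, 2.70 and 0.680 over all bins.

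CTCF, the protein that halts cohesin as it extrudes loops and marks many boundaries, was represented by its published core consensus, searched on both strands. No match lay within 10 kb of any of the 23 boundaries in or around V2R clusters (0 of 23, which at 3 counts allows a share of up to 13.04%). The share was 24.4% over all boundaries, 31.999% over strong and 15.9% over weak ones. Of the 23, 4 had a match within 50 kb (17.4%), against 52.1% of all and 38.3% of weak boundaries. A looser form of the consensus, with fewer fixed letters, lay within 10 kb of 11 (47.8%), against 76.1% of all and 65.7% of weak boundaries. Within the V2R clusters the consensus occurred 11 times, or 1.28 per Mb. The density was 1.77 per Mb in Vmn1r clusters, 2.09 in OR clusters and 4.97 over all chromosomes. For the looser form it was 19.9 per Mb in V2R clusters against 55.0 over all chromosomes. The V2R clusters had 38.0% GC, with 53.3% of bases masked as repeats, against 41.8% and 34.3% over all chromosomes. The GC content was 39.8% in Vmn1r clusters and 38.8% in OR clusters. The consensus is rich in G and C, and neither these densities nor the shares near boundaries were adjusted for composition. Whether composition accounts for them was not tested. Of the 11 consensus matches in V2R clusters, 10 lay on the minus strand. A match is a sequence and not a binding measurement.

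Some of these matches came in copies, and 4 are shown with 20 flanking bases, read along the minus strand of GRCm38 with the match in capitals. The first pair lies 6.51 kb from Vmn2r20 (chr6:123424609-123424660) and 6.57 kb from Vmn2r21 (chr6:123539954-123540005), beside 2 members that are 99.5% identical in coding sequence. The second pair lies 45.8 kb from Vmn2r43 (chr7:8306412-8306463) and in an intron of Vmn2r46 (chr7:9756668-9756719), in different clusters of the long stretch.
near Vmn2r20: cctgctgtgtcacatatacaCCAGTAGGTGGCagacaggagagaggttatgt
near Vmn2r21: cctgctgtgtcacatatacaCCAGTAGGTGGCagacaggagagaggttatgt
near Vmn2r43: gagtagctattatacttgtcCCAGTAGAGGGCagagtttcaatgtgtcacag
in Vmn2r46: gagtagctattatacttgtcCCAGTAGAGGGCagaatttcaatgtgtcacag
The nearest boundary was 195, 310, 1356 and 703 kb away from them, in that order. The match closest to any boundary was in an exon of Vmn2r76, 36.5 kb from a boundary of strength 0.424.

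Outside the long stretch of chromosome 7, likeness in coding sequence went mainly with the cluster, and inside it with the whole stretch. Median identity of coding sequences, by edit distance, was 89.1% over 318 pairs of the same cluster. It was 64.2% for pairs on the same chromosome in different clusters and 62.2% for pairs on different chromosomes. These medians include the pairs of the long stretch. The 211 pairs from different clusters of the long stretch reached 92.3%, and only 1 of its 24 members had its closest relative in its own cluster, while 23 had it in the stretch. Within clusters the median identity was 90.9% for 174 pairs in the same interval and 88.0% for the other 144 pairs. All same-cluster pairs of the long stretch are among the 174, with cluster medians of 94.0, 92.3, 91.3 and 89.0%. Pairs with Vmn2r27 or Vmn2r75, whose TSSs lie in a bin, count among the 144. Whether the difference rests on the long stretch was not tested. By cluster the median ran from 82.9% (Vmn2r104 to Vmn2r110) to 96.6% (Vmn2r84 to Vmn2r87). For 58 of 122 members the closest relative was more than 95% identical, which held for 22 of the 24 in the long stretch. The closest relative shared the cluster for 71 members and the interval for 76. Pairs share members and are not independent.

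Boundaries between neighbouring members of a cluster were also counted. Among 87 neighbouring pairs, 17 had a boundary bin between their TSSs or on one of them (19.5%). This share was not computed for other families or for all genes, so it is not known to be particular to V2R genes. The bin that holds the TSS of Vmn2r75 counted for both of its pairs, so the 17 pairs rest on 16 boundaries. These TSSs lay a median of 126 kb apart, against 80.7 kb for the 70 pairs without one. A longer gap takes in more bins, so a difference in this direction follows from the counting itself. By orientation the count was 15 of 71 pairs on the same strand, 1 of 8 convergent and 1 of 8 divergent pairs. In all, 105 members shared their interval with another V2R gene, 15 were the only one in theirs, and 49 lay in intervals with no other protein-coding gene.

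Genes that work with V2Rs lie elsewhere in the genome. Of 12 signalling and cofactor genes 1 was at a boundary, against 14.3% of all protein-coding genes, at a median distance of 29.9 kb: the TSS of Gnao1 lay in a bin of strength 0.503. The farthest were Trpc2, the transduction channel of vomeronasal neurons (167 kb), and Kcnj3, a potassium channel gene (121 kb). Of 9 MHC class Ib genes co-expressed with V2Rs, 1 was at a boundary, H2-M10.4 (2.67 kb, strength 0.214). They shared 3 intervals, and H2-M9 (147 kb) and H2-M1 (118 kb) were farthest. Of 7 regulator genes 2 were, both at strong boundaries: Bcl11b (6.40 kb, 1.89), needed for vomeronasal neurons, and Tfap2e (3.76 kb, 0.522), a factor of basal vomeronasal identity. Lhx2 (90.7 kb) and Meis2 (34.2 kb) were farthest. The lists are short, and these are positions without a test.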

How the data were processed

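Boundaries came from 1 deposited list made from the contacts of 2 biological replicates, combined by the submitters on GRCm38, per the labels' design text. Each bin has a class and a strength, which is the authors' score. Caller, version, window and mask were not given in the sources used here. Strengths as scores were used only to describe and rank boundaries. From there, Python 3.11.15 with numpy 2.4.6, pandas 2.3.3, scipy 1.17.1, numba 0.67.0, edlib 1.3.9.post1 and matplotlib 3.10.9 set the bins against GENCODE M21 genes and the GRCm38.p6 sequence of the same build.

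A TSS counted as at a boundary within 10 kb of the bin. Clusters were at least 3 members at most 200 kb apart, and an edge had a boundary within 50 kb. Repeated sequence was the share of 50-base words, sampled every 100 bases, found more than once in the genome. Both the word count and the distance step were tested on simulated data. No protein sequences were given, so members were compared by edit identity of GENCODE coding sequences in place of protein alignment. There was 1 group and 1 pooled list, hence no test between samples.

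Named were members at a boundary, the ends of clusters and their neighbours, the 5 farthest members, members outside clusters, and in each list those at a boundary and the 2 farthest. Members named beyond this, such as those overlapped by a bin, were chosen after their values were seen. The members and lists were chosen with earlier results of these data known. Alternatives were other windows, classes, gaps, gene starts and member sets.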

Additional observations from a re-analysis of the deposited data

How the results depend on the processing

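Under a first set of 29 alternatives, 17 values stayed within counting error or 1.5 times and 12 moved further. Under 13 more, added after seeing the data, 10 stayed and 3 moved. The share of V2R TSSs at a boundary (8.20%) became 1.64% for TSSs inside the bin, 1.64% with strong boundaries, 1.64% with strengths of at least 1, 18.03% within 50 kb and 17.1% with 1 member per interval (7 of 41). With strong boundaries alone the median distance (143 kb) was 413 kb, the density inside clusters (1.87 per Mb) 0.234, the clusters without an inner boundary (8 of 17) 15, the overlapped gene bodies (7) 1, and the longest boundary-free stretch (3510 kb) 13975 kb, on chromosome X. Cluster edges with a boundary (32.4%) became 11.8% within 25 kb. Clusters without an inner boundary became 5 of 13 with gaps of up to 500 kb and 4 of 13 without the long stretch. With gaps of up to 100 kb they were 12 of 18, which lies at the limit of 1.5 times and was counted as unmoved. The density inside clusters was then 1.31 per Mb. CTCF matches near cluster boundaries (0%) became 17.4% within 50 kb and 47.8% with the looser form. Windows, classes and gaps change these values by construction, since they change which boundaries or clusters count. Keeping 1 member per interval also changes the share by construction, since it keeps the leftmost member and every member inside a bin. It dropped Vmn2r3, Vmn2r55 and Vmn2r67, which lie beside a boundary on their right. Without the long stretch the median distance was 105 kb and 42.3% of edges had a boundary. No paired analysis was possible because both replicates were pooled into 1 list, which also means that no replicate could be left out. The depth behind the list is unknown.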

Other observations

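Genes for known V2R ligands were also set against the list. Of 15 genes for exocrine gland-secreting peptides on chromosome 17, 2 were at a boundary (13.3%, against 14.3% of all protein-coding genes), Esp16 (3.86 kb, strength 0.307) and Esp18 (8.64 kb, 0.447), and the 15 were spread over 7 intervals, with Esp6 (178 kb) and Esp8 (175 kb) farthest. All 22 major urinary protein genes lay in 1 interval of chromosome 4, 59945001 to 62265000 (2320 kb), and 0 of the 22 were at a boundary (which at 3 counts allows up to 13.6%). Their median distance was 520 kb, and Mup13 (1037 kb) and Mup14 (961 kb) were farthest. In that interval 71.2% of sampled words were repeated and 17.2% of bases were assembly gaps. The long V2R stretch had 75.3% and 1.42%.

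Of 15 single-gene class C receptors, 1 was at a boundary, Grm4 (3.60 kb, strength 2.05). Its share of 6.67% has an interval of 0.169 to 31.9%, which contains the 14.3% of all protein-coding genes. Their median distance was 42.6 kb, against 143 kb for the V2R genes and 56.6 kb for all protein-coding genes, and Grm3 (270 kb) and Gprc6a (124 kb) were farthest. Each of the 15 lay in an interval of its own. Of 4 formyl peptide receptor-related genes 0 were at a boundary, too few to set against 14.3%, and Fpr-rs3 (400 kb) and Fpr-rs4 (96.7 kb) were farthest. Among 13 genes that mark cell types of the nose, 3 were at a boundary (23.1%, interval 5.04 to 53.8%, which also contains 14.3%). The TSSs of Gnal and Gnao1 lay in boundary bins and Sox9 lay 2.22 kb from one, while Trp63 (281 kb) and Gap43 (171 kb) were farthest.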
